A study of Rattus norvegicus with 31 samples.

Results

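The liver transcriptomes of rats fed a high-fat diet (H-group) and a low-fat diet (L-group) were compared on Affymetrix rat genome arrays, 1 array per rat. The comparison took the 5 liver arrays labelled low fat (rats L1 to L5) and the 4 labelled high fat (rats H12, H13, H15 and H16), 9 of the 31 samples of the series, and was run over all 31042 probe sets that are not controls. The other samples are 4 livers of a moderate-fat group, which are not compared here, and 18 arrays of adipose tissue. All were male Wistar rats, 3 weeks old on arrival, and were kept on chow for 1 week before the diets. In the L-diet carbohydrate gave 65% and fat 15% of the energy, and in the H-diet 35% and 45%. After 1 week of free feeding on these diets, the L-group went on eating ad libitum for 9 weeks while the H-group received the same energy as the L-group, so that the groups differed in where the energy came from and not by design in how much energy was eaten. The diets held the same amount of lard and differed in soybean oil, so their fatty acid profile differed too, as the study states. The groups differed also in the manner of feeding, free in the L-group and matched to the L-group in the H-group. The study states that no dietary restriction arose from this matching. The parts of fat energy, of oil type and of the manner of feeding in a difference cannot be told apart. Food was withdrawn 17 h before dissection, so every value below describes a fasted liver. A small piece of each liver was taken, which holds all the cell types of the tissue. A difference therefore cannot be told apart between fewer cells of a type and less RNA per cell.

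The liver makes fatty acids, cholesterol and bile acids, packs lipids into lipoproteins, and oxidizes fatty acids during a fast. Transcription factors set much of this, among them the sterol-sensing SREBP proteins, the nuclear receptors that bind fatty acids, oxysterols and bile acids, and the circadian clock, whose phase in the liver follows the times of feeding. Growth hormone acts on the same organ through the kinase JAK2 and the transcription factor STAT5, which in turn raise their own inhibitors of the SOCS family.

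All values are log2 intensities made with the robust multi-array average (RMA), and all differences are H minus L on that log2 scale. Values ran from 1.78 to 14.30, array medians lay between 4.67 and 4.70, and correlations between arrays between 0.99196 and 0.99552. On the first principal component, with 22.36% of the variance, the 4 H rats (8.35 to 18.19) lay above the 5 L rats (-23.96 to -0.72). L2 was lowest and L1 next at -16.99, while L3, L4 and L5 lay between -6.66 and -0.72, with L5 nearest to the H rats. A gene was said to rise or fall only where limma, fitted to the 13 liver arrays and adjusted over all probe sets, gave an adjusted p under 0.05. Rank products, the method of the study, was run on the 9 arrays at a false discovery rate under 0.05 and is given beside it. The markers of the tissue were as labelled. *Alb* (albumin) lay between 14.28 and 14.30 in all 9 rats and *Ttr* (transthyretin) between 13.77 and 13.82, while all 7 skeletal muscle markers and 6 of 7 exocrine pancreas markers had means under 5.

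Limma called 11 probe sets, 0.0354% of those tested. In the H-group 7 of them (0.0226%) were higher and 4 (0.0129%) lower. Of these, 8 carry the name of a gene. Taken over the 14217 genes, each on its brightest probe set, 5 rose (0.0352%) and 2 fell (0.0141%). By rank products 206 probe sets were higher (0.664%) and 230 lower (0.741%), and the 11 limma calls were all among these 436. Absolute differences of at least 1 were found for 47 probe sets (0.151%).

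*Slc39a4*, which codes for the zinc importer ZIP4, fell in the H-group. Its values were 7.58, 7.52, 7.27, 7.51 and 7.51 in rats L1 to L5 and 6.82, 6.38, 6.78 and 6.74 in rats H12, H13, H15 and H16. The groups were apart, with all 4 H rats below the L rats and H13 lowest, and the fall was 1.74-fold (log2 difference -0.80, standard error 0.09, adjusted p = 0.00672). *Smim1*, a small membrane protein of red cells and other tissues, had 6.33, 6.60, 6.37, 6.37 and 6.60 in rats L1 to L5 and 5.69, 5.85, 5.93 and 5.78 in rats H12, H13, H15 and H16. Again the groups did not overlap (log2 difference -0.64, standard error 0.07, adjusted p = 0.00672). *Eml4*, a protein that binds microtubules, was measured by 3 probe sets. The called one had 7.40, 7.42, 7.32, 7.32 and 7.27 in the L rats and 6.73, 6.66, 6.61 and 6.89 in the H rats, a fall of 0.63 (adjusted p = 0.00672), whereas the other probe sets of the gene differed by only -0.08 and -0.18, and the mean of all 3 did not pass (adjusted p = 0.19).

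*Tmem150c*, a membrane protein tied in mice to currents evoked by mechanical force, rose. Its values were 6.01, 5.73, 6.19, 5.92 and 6.001 in the L rats and 6.74, 6.52, 6.93 and 6.81 in the H rats, without overlap (log2 difference 0.78, standard error 0.09, adjusted p = 0.00779). *Adam22*, a member of the ADAM family without protease activity, known best as a receptor in the brain, had 3.25, 3.34, 4.14, 3.40 and 2.69 in the L rats and 4.86, 5.24, 4.95 and 4.97 in the H rats. In the L rats it lay near the low end of the scale, with no detection call used here to set a floor, so only the difference in RMA values is given (log2 difference 1.64, standard error 0.23, adjusted p = 0.0259). Its other probe sets were dimmer and differed by 0.39 and -0.01.

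*Enpp5*, a membrane protein of the nucleotide pyrophosphatase family, rose 2.06-fold (log2 difference 1.04, standard error 0.15, adjusted p = 0.0259), with 6.09, 6.62, 6.52, 5.90 and 6.40 in the L rats and 7.61, 7.25, 7.40 and 7.11 in the H rats. *Fabp2*, the fatty acid binding protein typical of the intestine, rose 2.18-fold (log2 difference 1.12, standard error 0.16, adjusted p = 0.0259), with 5.19, 5.13, 5.63, 5.34 and 5.73 in the L rats and 6.75, 6.76, 6.26 and 6.34 in the H rats. *Prps2* makes phosphoribosyl pyrophosphate, the precursor of nucleotides, and had 6.95, 6.88, 7.02, 7.02 and 7.14 in the L rats and 7.44, 7.52, 7.38 and 7.61 in the H rats. It rose 1.40-fold (log2 difference 0.49, standard error 0.07, adjusted p = 0.0259), and its other probe sets differed in the same direction, by 0.10 and 0.37. In these 3 genes every H rat lay above every L rat. The calls of *Slc39a4*, *Smim1*, *Eml4* and *Tmem150c* passed whichever array was left out, but those of *Adam22*, *Enpp5* and *Fabp2* in only 6 and that of *Prps2* in only 4 of the 13 fits that left out 1 array. Without both L1 and L2, an alternative chosen after the data were seen that leaves 3 L rats, limma called 0 probe sets (lowest adjusted p = 0.131). The 11 kept their directions, with unadjusted p up to 0.000177, and 1967 of all probe sets had an unadjusted p under 0.05, against 2809 with all rats. With the 9 compared arrays alone, *Tmem150c* (adjusted p = 0.0535) and these last 4 genes did not pass. The 3 further calls were on probe sets that carry no gene name, and the largest fall among the calls was one of them. That probe set averaged 9.33 ± 0.28 (SD, n = 5) over the L rats and 7.18 ± 0.41 (SD, n = 4) over the H rats, a 4.43-fold difference.

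**Figure D1:**
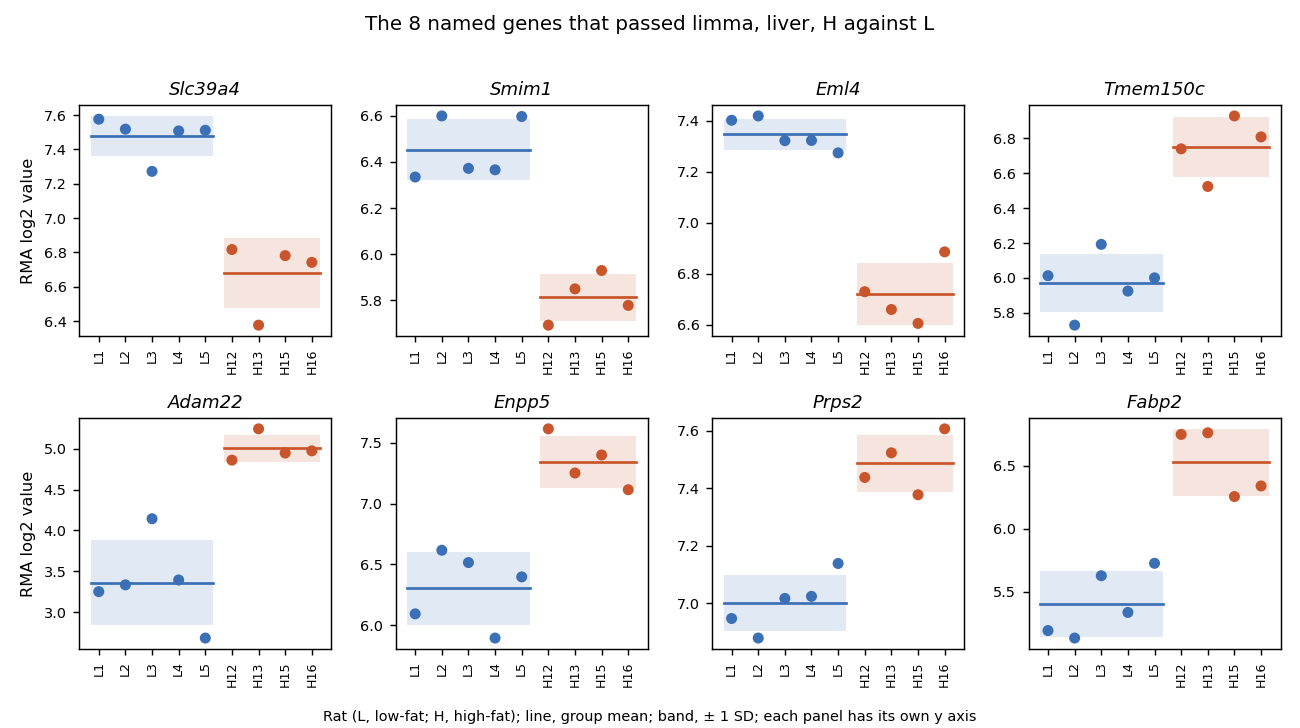
RMA log2 values (y axis) of the 8 named genes past limma in each of the 9 livers (x axis), with the group mean as a line and 1 SD as a band. In each panel the 4 H rats lie on one side of the 5 L rats, as in Slc39a4, where the H rats sit between 6.38 and 6.82 and the L rats between 7.27 and 7.58.

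Genes were also grouped in lists. Over all genes the median difference was 0.00, 51.8% were on the higher side (a difference above 0), 5.4% were higher and 3.82% lower at an unadjusted limma p under 0.05, and in 2.03% the H rats all lay above and in 1.39% all below the L rats. Rank products called 0.893% higher and 0.774% lower. Each list below is to be read against these shares. Apart from *Fabp2* and *Slc39a4*, no gene of a list passed limma on its brightest probe set, so the other differences are given as values.

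**Figure D2:**
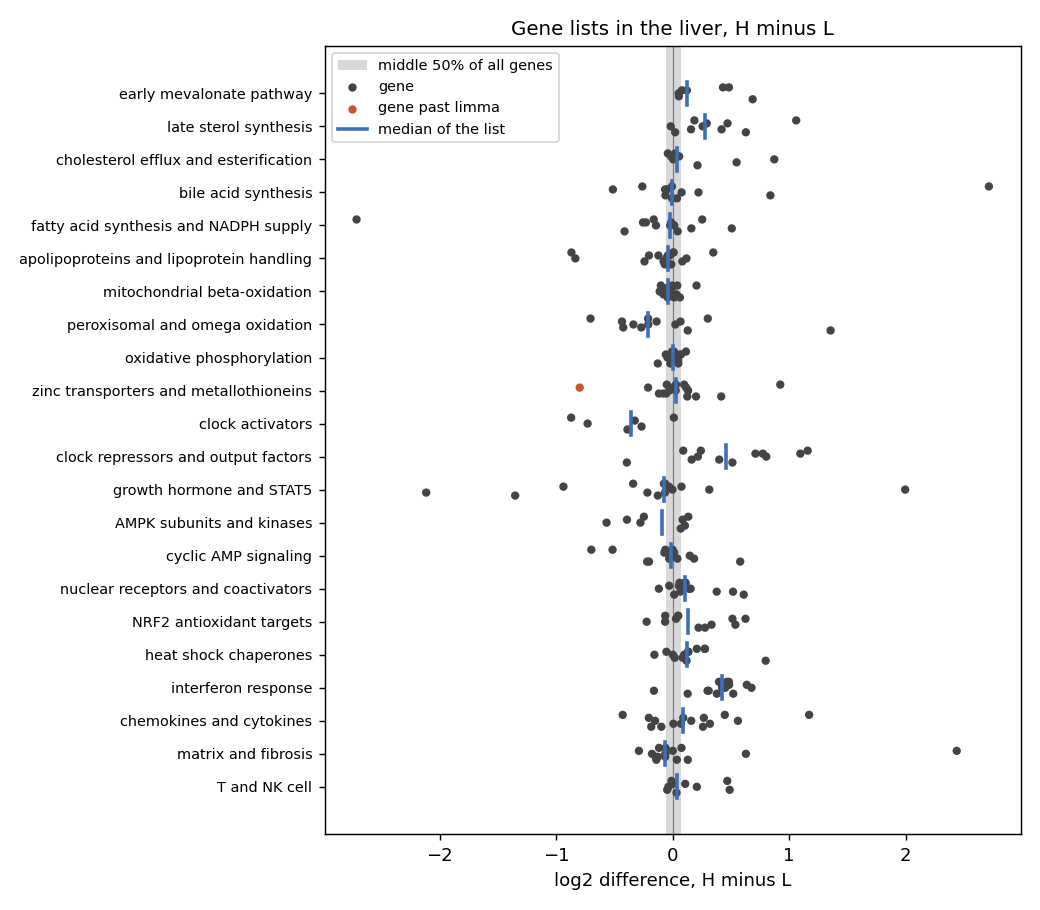
Log2 differences, H minus L (x axis), of the measured genes of 22 lists (rows), with the median of each list as a blue line and the range of the middle 50% of all genes as a grey band. Among the medians that lie right of the band are those of the *Per* genes and output factors of the clock (0.46), the interferon response (0.42) and late sterol synthesis (0.27), and among those left of it are the list of *Bmal1* (-0.36) and peroxisomal and omega oxidation (-0.21).

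Cholesterol synthesis starts with *Acat2*, which joins acetyl-CoA units, and passes through *Idi1* and *Fdps* to the later steps. Among these is that of *Sqle*, the squalene epoxidase. All 7 measured genes of the early mevalonate pathway were on the higher side (median 0.12, but 0.05 without L2 and 0.27 without H12), with 3 at an unadjusted p under 0.05 and 2 called by rank products. Of 10 later genes, 9 were on the higher side (median 0.27), again with 3 and 2. *Sqle* had 4.06, 3.94, 4.64, 4.48 and 3.85 in the L rats and 5.21, 5.58, 5.73 and 4.50 in the H rats. H12, H13 and H15 exceeded all L rats, while H16 lay within the range of L3 and L4 (log2 difference 1.06, standard error 0.23, adjusted p = 0.174), and without H16 the gene passed limma (adjusted p = 0.0417). *Acat2* had 4.78, 5.005, 4.99, 5.21 and 4.87 in the L rats and 5.33, 5.63, 5.53 and 5.32 in the H rats, without overlap (log2 difference 0.48, standard error 0.11, adjusted p = 0.187). In both genes H13 and H15 were the highest H rats. In *Idi1* (6.14, 6.38, 6.99, 7.16 and 6.90 in the L rats and 6.89, 7.84, 7.88 and 6.99 in the H rats) and in *Msmo1*, a methyl sterol oxidase (7.16, 6.92, 7.98, 7.68 and 7.45 in the L rats and 7.82, 8.19, 8.42 and 7.83 in the H rats), H13 and H15 were again highest and H12 and H16 close to the upper L rats, and L1 and L2 were the lowest of all. *Fdps* at 0.43 (standard error 0.13) and *Hsd17b7* at 0.47 (standard error 0.19) had the same lowest pair of rats.

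The transcription factors of this pathway were *Srebf1*, whose main liver product drives fatty acid genes, and *Srebf2*, which drives sterol genes. *Srebf1* had 7.33, 6.97, 7.34, 7.26 and 7.66 in the L rats and 8.29, 7.71, 8.34 and 7.92 in the H rats, without overlap (log2 difference 0.75, standard error 0.17, adjusted p = 0.191). *Srebf2* differed by 0.21 (standard error 0.09) on its brightest probe set, and its other probe set had the other sign. On the brightest one, H13 and H15, the highest H rats in *Sqle*, held most of the difference, at 6.73 and 6.71 against 6.38 in H12 and 6.30 in H16.

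The outlet of cholesterol into bile is a transporter made of the products of *Abcg5* and *Abcg8*, a pair of genes that lie head to head and share their promoter. Both had the higher mean in the H-group. *Abcg5* had 7.24, 6.53, 7.79, 7.30 and 7.28 in the L rats and 7.95, 8.44, 7.94 and 8.08 in the H rats, so that each H rat exceeded each L rat (log2 difference 0.87, standard error 0.19, adjusted p = 0.187). *Abcg8*, on a dimmer probe set, had 3.51, 3.21, 3.61, 3.38 and 3.38 in the L rats and 4.05, 4.30, 3.56 and 3.96 in the H rats. Here H15 lay within the range of the L rats (log2 difference 0.55, standard error 0.12, adjusted p = 0.193), and without H15 the gene passed limma (adjusted p = 0.0373). The other 6 genes of the list of cholesterol efflux and esterification had unadjusted p above 0.05, and *Abca1*, the transporter that loads high-density lipoprotein, differed by 0.02. The sequence below shows how close the genes lie. It is the RefSeq window of *Abcg5* in build GRCr8, chr6:15717686-15717985 on the plus strand, from 250 bases before to 50 after the start. The capitals mark the 205 bases between the first base of *Abcg5* and the first base of *Abcg8*, which is read from the other strand.
Abcg5: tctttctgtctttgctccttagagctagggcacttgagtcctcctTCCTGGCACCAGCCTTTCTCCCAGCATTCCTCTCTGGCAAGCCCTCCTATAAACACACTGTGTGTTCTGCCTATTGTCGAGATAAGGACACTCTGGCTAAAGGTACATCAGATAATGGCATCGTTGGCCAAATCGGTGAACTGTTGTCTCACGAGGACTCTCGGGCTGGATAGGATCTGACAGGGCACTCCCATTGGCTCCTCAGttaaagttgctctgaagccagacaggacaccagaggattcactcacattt

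*Cyp7a1*, whose enzyme sets the pace at which cholesterol becomes bile acid, had the largest difference of the named genes that was positive. Its values were 6.22, 4.40, 5.24, 7.77 and 7.69 in the L rats and 7.75, 8.58, 9.95 and 9.64 in the H rats, which spread widely in both groups. L4 and L5 reached the level of H12, and the difference was 6.56-fold with a wide interval (log2 difference 2.71, standard error 0.71, adjusted p = 0.277, 95% interval 1.19 to 4.23). *Cyp7b1*, of the alternative pathway, rested mostly on H12 (2.80, 2.65, 2.61, 2.66 and 2.95 in the L rats and 4.95, 3.10, 2.96 and 3.29 in the H rats), as H15 was level with L5. *Amacr*, a racemase for the side chain of bile acid precursors, was on the lower side, with 11.85, 11.69, 12.20, 11.86 and 12.05 in the L rats and 11.59, 11.42, 11.62 and 11.04 in the H rats, and did not overlap (log2 difference -0.51, standard error 0.15, adjusted p = 0.347). *Cyp8b1* and *Cyp27a1*, the other main hydroxylases, differed by -0.05 and 0.08. Of the 12 genes of bile acid synthesis 5 were on the higher side, and the median was -0.01. None of the 10 genes of bile acid sensing and transport had an unadjusted p under 0.05, the closest being the bile acid receptor *Nr1h4* (-0.36, standard error 0.20).

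**Figure D3:**
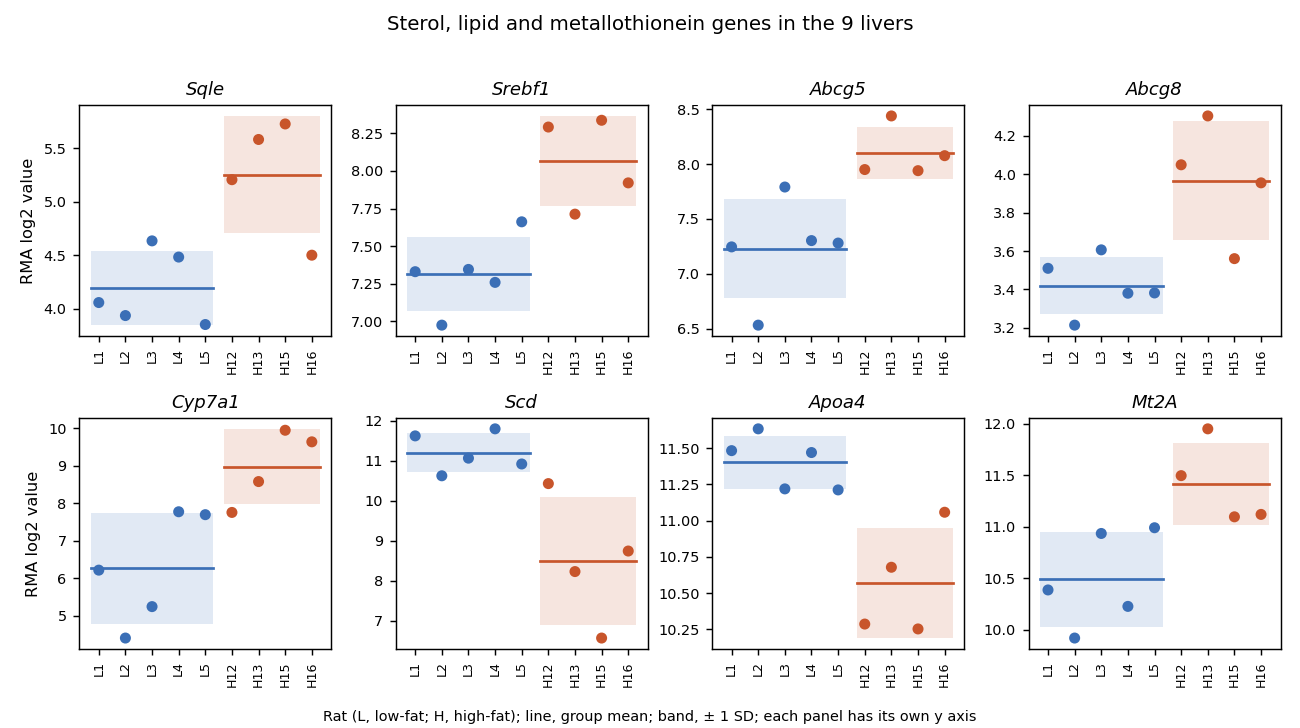
RMA log2 values (y axis) of 8 sterol, lipid and metallothionein genes in the 9 livers (x axis), with the group mean as a line and 1 SD as a band. The H rats lie apart from the L rats in Srebf1, Abcg5, Scd, Apoa4 and Mt2A, and overlap them in Sqle, Abcg8 and Cyp7a1.

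*Scd* codes for the stearoyl-CoA desaturase, which makes monounsaturated fatty acids. Its values were 11.63, 10.63, 11.07, 11.80 and 10.92 in the L rats and 10.43, 8.23, 6.57 and 8.75 in the H rats. All H rats lay below all L rats, but they differed among themselves by far more than the L rats, with H12 close to the L-group and H15 lowest, and the mean difference was 6.55-fold (log2 difference -2.71, standard error 0.61, adjusted p = 0.193). Of the 13 measured genes of fatty acid synthesis and NADPH supply 8 were on the lower side (median -0.02), 4 of them at an unadjusted p under 0.05. *Elovl6*, which elongates palmitate, differed by -0.41 (standard error 0.15), and *Acaca*, acetyl-CoA carboxylase, by -0.23 (standard error 0.09). On the other side stood *Acly*, which supplies cytosolic acetyl-CoA, at 0.25 (standard error 0.09), and *Fasn*, fatty acid synthase, at 0.16 with an unadjusted p of 0.0844. *Scd* was the only gene of this list called lower by rank products. The only one called higher was *Thrsp*, a protein that promotes fatty acid synthesis in rodents, with 9.18, 8.62, 9.21, 9.36 and 10.15 in the L rats and 9.62, 8.88, 10.55 and 10.19 in the H rats. The groups overlapped, and the difference of 0.51 (standard error 0.37, unadjusted p = 0.19) was 0.26 without H15 and 0.34 without L2. *Fads1*, the desaturase of polyunsaturated fatty acids, went the opposite way from *Scd*, with 9.94, 9.12, 10.64, 9.95 and 9.87 in the L rats and 10.65, 10.93, 10.75 and 10.26 in the H rats (log2 difference 0.74, standard error 0.24, adjusted p = 0.39), L3 lying within the H range. *Fads2* differed by 0.43 (standard error 0.21).

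Genes for storing and carrying fatty acids gave a mixed picture. *Lpin2*, a phosphatidate phosphatase, was at 7.32, 6.55, 7.95, 7.39 and 7.58 in the L rats and 8.14, 8.05, 8.48 and 8.05 in the H rats, without overlap (log2 difference 0.82, standard error 0.34, adjusted p = 0.503). *Dgat2*, which makes triacylglycerol, differed by 0.26 (standard error 0.11) and *Cideb*, a lipid droplet protein needed for lipoprotein loading in mice, by 0.19 (standard error 0.06). Over the 18 genes of triacylglycerol synthesis and droplets 9 were on each side. Among the fatty acid carriers, *Fabp2* rose as described, *Fabp5* differed by -0.33 (standard error 0.10), and *Fabp1*, the abundant liver form, by -0.10 (standard error 0.04) with all H rats (13.40 to 13.49) below all L rats (13.51 to 13.58). *Acsl3*, which activates fatty acids, differed by 0.44 (standard error 0.10, adjusted p = 0.177). Of the 15 genes of this list, 11 were on the lower side (median -0.09).

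Lipoprotein genes were mostly on the lower side, 12 of 17 (median -0.04), with 4 at an unadjusted p under 0.05 and 3 without overlap. *Apoa4*, an apolipoprotein made by intestine and liver, had 11.48, 11.63, 11.22, 11.47 and 11.21 in the L rats and 10.29, 10.68, 10.25 and 11.06 in the H rats. H12, H13 and H15 formed the lowest group and H16 came nearer to the L rats (log2 difference -0.83, standard error 0.15, adjusted p = 0.10), and without H16 the gene passed limma (adjusted p = 0.024). *Apom*, the carrier of sphingosine phosphate, had a small but tight difference, with the H rats between 11.37 and 11.41 and the L rats between 11.55 and 11.65 (log2 difference -0.20, standard error 0.04, adjusted p = 0.166). *Angptl4*, an inhibitor of lipoprotein lipase, had 10.08, 10.29, 10.58, 9.90 and 9.06 in the L rats and 8.58, 9.83, 9.04 and 8.999 in the H rats, with L5 among the H rats and H13 among the L rats (-0.87, standard error 0.30). *Apoa1*, the main protein of high-density lipoprotein, lay on the higher side (12.74, 12.56, 12.79, 12.63 and 12.62 in the L rats and 13.12, 13.07, 13.15 and 12.73 in the H rats) and only H16 overlapped the L rats (0.35, standard error 0.09).

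For the burning of fatty acids the values were close. None of 17 genes of mitochondrial beta-oxidation and none of 18 of oxidative phosphorylation had an unadjusted limma p under 0.05 or was called by rank products, and the medians were -0.04 and 0.00. *Cpt1a*, the gatekeeper of mitochondrial entry, had the smallest p of the former list and differed by 0.20 (standard error 0.10). A dimmer probe set of *Cpt1a* differed by -0.02. Peroxisomal and omega oxidation had a median of -0.21 over 13 genes, with 8 on the lower side and 5 on the higher. The differences ran from -0.70 to 1.36, and rank products called 1 gene higher and 3 lower. *Ehhadh*, the bifunctional peroxisomal enzyme, had 11.73, 11.50, 12.40, 11.35 and 11.68 in the L rats and 10.81, 11.45, 10.71 and 11.13 in the H rats (-0.70, standard error 0.28), and *Cyp4a1*, a fatty acid omega hydroxylase, -0.44 (standard error 0.18). Leaving out H15 turned the median of this list to 0.11. *Acot1*, an acyl-CoA thioesterase named here after its values were seen, spread widely within the H-group, from 4.52 in H15 to 9.58 in H16. No difference between the diets is read from it. *Slc25a30*, a carrier of the inner mitochondrial membrane, stood apart from these lists. It had 10.69, 11.04, 10.35, 10.87 and 10.49 in the L rats and 9.53, 9.85, 8.89 and 9.52 in the H rats, without overlap and with H15 lowest (log2 difference -1.24, standard error 0.25, adjusted p = 0.165), and a dimmer probe set of the gene differed by -1.60. *Slc25a33*, a mitochondrial pyrimidine nucleotide carrier, differed by 0.46 (standard error 0.15) without overlap.

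Genes of glucose metabolism had members on both sides. *Fbp1* of gluconeogenesis differed by -0.19 (standard error 0.06) with all H rats (12.32 to 12.48) below all L rats (12.51 to 12.63), and *Pc*, pyruvate carboxylase, by -0.18 (standard error 0.07). *Gpt*, an alanine aminotransferase, had 9.40, 9.42, 8.75, 8.96 and 8.51 in the L rats and 7.91, 8.93, 8.50 and 8.76 in the H rats. The groups overlapped, H12 was lowest, and the difference of -0.48 (standard error 0.29, unadjusted p = 0.115), called lower by rank products, was -0.28 without H12. None of 12 genes of glycolysis, fructose and glycogen had an unadjusted p under 0.05, the largest difference being that of *Gys2*, the liver glycogen synthase (0.48, standard error 0.26). *Pdk4*, a kinase that shuts pyruvate dehydrogenase during fasting, was at 9.63, 10.68, 10.48, 9.65 and 9.95 in the L rats and 9.60, 9.68, 9.68 and 8.23 in the H rats. Without H16, which lay far below the rest, its difference, called lower by rank products, shrank from -0.78 to -0.43. A dimmer probe set of *Pdk4*, also called lower by rank products, differed by -0.82. It had 5.74, 7.03, 6.65, 5.83 and 6.26 in the L rats and 5.76, 5.64, 5.41 and 5.12 in the H rats, where H16 was lowest but not far below.

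Zinc homeostasis holds *Slc39a4*, described above. The liver takes up zinc through importers of the SLC39 family, exports it through the SLC30 family and binds it in metallothioneins, whose genes are switched on by zinc through the factor MTF1. Of 17 genes in this list, 9 were on the higher and 8 on the lower side (median 0.03), 4 higher and 1 lower at an unadjusted p under 0.05. Besides *Slc39a4*, the metallothioneins stood out. *Mt2A* had 10.39, 9.92, 10.93, 10.23 and 10.99 in the L rats and 11.50, 11.95, 11.10 and 11.12 in the H rats and *Mt1* had 5.47, 5.22, 5.84, 5.62 and 5.93 in the L rats and 5.94, 6.19, 5.97 and 6.02 in the H rats. In both genes every H rat lay above every L rat, though in *Mt1* H12 was level with L5 (log2 difference 0.92, standard error 0.23, adjusted p = 0.232 for *Mt2A*, and 0.42, standard error 0.15, adjusted p = 0.447 for *Mt1*). *Mtf1* differed by -0.02 on its brightest probe set and by 0.16 and -0.15 on its other probe sets, the importer *Slc39a10* differed by -0.21 (standard error 0.15) and *Slc39a1* by 0.10 (standard error 0.05). The remaining 11 transporters lay between -0.12 and 0.20. The metallothionein promoters are shown because both genes differed in the same direction and lie near each other on chromosome 19, both on the minus strand, at chr19:10838659-10838958 for *Mt2A* and chr19:10832926-10833225 for *Mt1* in build GRCr8 (RefSeq, 250 bases before to 50 after the start). Capitals mark the core of the metal response element, searched as TGCACNC or TGCGCNC on both strands, where N is any base. *Mt2A* holds 4 and *Mt1* 6 such matches, and 0.439% of the 33469 promoter windows hold 4 or more, while 24.2% hold at least 1.
Mt2A: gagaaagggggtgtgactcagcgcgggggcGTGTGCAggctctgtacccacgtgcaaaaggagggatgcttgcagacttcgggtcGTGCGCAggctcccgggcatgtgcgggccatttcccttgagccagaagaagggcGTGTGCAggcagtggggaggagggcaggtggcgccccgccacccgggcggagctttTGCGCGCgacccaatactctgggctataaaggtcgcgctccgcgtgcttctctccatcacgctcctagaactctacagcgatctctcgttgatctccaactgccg
Mt1: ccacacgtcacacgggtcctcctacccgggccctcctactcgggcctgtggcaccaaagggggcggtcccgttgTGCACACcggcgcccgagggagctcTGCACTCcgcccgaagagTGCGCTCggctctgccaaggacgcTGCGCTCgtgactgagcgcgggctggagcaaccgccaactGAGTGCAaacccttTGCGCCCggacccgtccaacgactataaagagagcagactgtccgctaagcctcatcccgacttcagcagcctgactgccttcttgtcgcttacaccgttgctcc

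The circadian clock is a loop in which BMAL1 with CLOCK or NPAS2 activates the *Per*, *Cry* and *Nr1d* genes, whose products then repress *Bmal1* or the activators, and the output factors *Dbp*, *Tef* and *Hlf*. In a list of 6 genes led by *Bmal1*, which also holds the repressors *Nfil3* and *Cry1*, 5 had differences below 0 (median -0.36). Of these, 1 had an unadjusted p under 0.05 and 2 were called lower by rank products. In a list of 12 genes of the *Per* branch and the outputs, 11 were on the higher side (median 0.46), 3 of them at an unadjusted p under 0.05 and 5 called by rank products. *Bmal1* had 5.92, 5.79, 4.26, 4.31 and 4.34 in the L rats and 3.82, 4.34, 4.20 and 3.85 in the H rats. L1 and L2 stood more than 1 log2 unit above the other 7 rats, L3, L4 and L5 lay near H13 and H15, and H12 and H16 were lowest. The difference of -0.87 was -0.62 without L1 and -0.65 without L2. *Npas2* was likewise highest in L1 and L2 (6.76, 6.77, 4.76, 4.37 and 5.49 in the L rats and 5.35, 5.06, 4.60 and 4.60 in the H rats). *Dbp* was its mirror image, with 6.39, 6.38, 8.36, 8.69 and 8.47 in the L rats and 8.51, 8.33, 9.05 and 9.13 in the H rats, and so was *Per3*, with 5.99, 6.08, 7.31, 7.49 and 7.49 in the L rats and 7.72, 7.49, 7.65 and 7.83 in the H rats. None of these 4 genes had an unadjusted limma p under 0.05. Rank products called *Bmal1* and *Npas2* lower and *Dbp* and *Per3* higher.

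*Bhlhe41*, a repressor that joins the loop at the E-box, was the only gene of the 18 without overlap. Its values were 3.14, 3.31, 3.72, 3.68 and 3.91 in the L rats and 5.08, 4.13, 4.62 and 4.997 in the H rats, with L1 and L2 lowest again but each H rat above each L rat (log2 difference 1.16, standard error 0.24, adjusted p = 0.166). Its relative *Bhlhe40* went the other way with wide spread (-0.39, standard error 0.34) and was called lower by rank products. *Per2* had 7.49, 7.56, 8.39, 8.32 and 8.62 in the L rats and 8.91, 8.35, 8.97 and 9.16 in the H rats (0.77, standard error 0.33), where a second, dimmer probe set differed by -0.03, and *Nr1d1*, the REV-ERB alpha repressor, had 5.95, 6.83, 7.19, 7.01 and 6.96 in the L rats and 7.36, 7.44, 7.09 and 7.31 in the H rats (0.51, standard error 0.20). *Usp2* and *Hlf* were lowest in L2 alone, at 4.82 and 7.29. *Clock* at -0.33 (standard error 0.18), *Nfil3* at -0.39 (standard error 0.17), *Rora* at -0.27 (standard error 0.14), *Cry2* at 0.40 (standard error 0.26), *Nr1d2* at 0.24, *Tef* at 0.22, *Per1* at 0.09 and *Cry1* at 0.01 made up the rest. A dim probe set of *Rora* differed by 0.09 and one of *Nr1d2* by -0.01. L1 and L2 were also the lowest rats in *Idi1*, *Msmo1*, *Fdps* and *Hsd17b7*. No label gives an order or time of dissection for single rats, so the part of such an order in the difference between the diets was not tested. The part of free against matched feeding was not tested either, as it cannot be told apart from that of the diet. Leaving out single rats gave medians of -0.42 to -0.25 for the list of *Bmal1* and of 0.31 to 0.54 for that of the *Per* genes, and the values nearest to 0 were those without L2. Without both L1 and L2 the medians were -0.20 and 0.22, *Bmal1* differed by -0.25, *Dbp* by 0.25 and *Per3* by 0.25, and *Npas2* turned to 0.03.

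**Figure D4:**
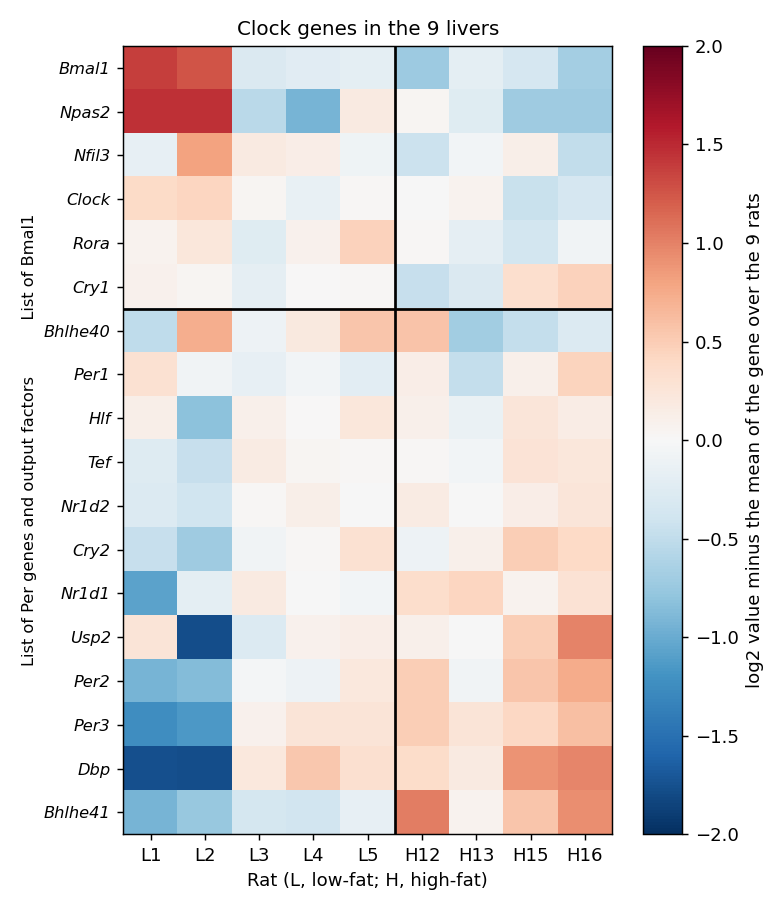
Log2 values of 18 clock genes (rows) in the 9 livers (columns), each minus the mean of the gene over the 9 rats (colour scale in log2 units). Bmal1 and Npas2 are highest and Dbp and Per3 lowest in rats L1 and L2, while Bhlhe41 is higher in all 4 H rats (4.13 to 5.08) than in the L rats (3.14 to 3.91).

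The promoters of *Bhlhe41* and *Bmal1* are printed to show the elements through which the loop is known to close. The first is chr4:180569306-180569605 on the minus strand and the second chr1:176766078-176766377 on the plus strand (GRCr8, RefSeq, same window). The capitals in *Bhlhe41* mark an E-box, CACGTG, which begins 48 bases before the start and is held by 6.42% of all windows. The capitals in *Bmal1* mark TAGGTCA, an element bound by ROR and REV-ERB proteins, which begins 16 bases before the start (2.63% of all windows). Of the 18 clock genes 16 had a window, 4 of these held an E-box and 1 held TAGGTCA on either strand.
Bhlhe41: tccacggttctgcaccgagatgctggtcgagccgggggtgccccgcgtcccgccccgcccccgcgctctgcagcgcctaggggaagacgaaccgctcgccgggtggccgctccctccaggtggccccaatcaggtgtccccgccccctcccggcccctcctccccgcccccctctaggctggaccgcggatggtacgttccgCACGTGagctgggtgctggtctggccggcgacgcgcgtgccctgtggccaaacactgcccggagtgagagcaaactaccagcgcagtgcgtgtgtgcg
Bmal1: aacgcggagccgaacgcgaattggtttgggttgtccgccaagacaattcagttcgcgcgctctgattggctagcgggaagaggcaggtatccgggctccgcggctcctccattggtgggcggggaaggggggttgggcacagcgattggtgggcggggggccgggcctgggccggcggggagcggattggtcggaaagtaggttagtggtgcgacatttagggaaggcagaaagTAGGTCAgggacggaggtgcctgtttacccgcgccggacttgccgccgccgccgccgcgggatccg

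Several genes known to answer to growth hormone differed widely. *Onecut1* (HNF6), a liver transcription factor that growth hormone raises in rat liver, had 10.66, 11.69, 9.77, 10.78 and 9.50 in the L rats and 8.79, 9.34, 7.20 and 8.14 in the H rats. All H rats lay below all L rats, with H15 lowest and L2 highest, a 4.33-fold difference (log2 difference -2.11, standard error 0.49, adjusted p = 0.198), and the other probe set of the gene gave -2.18. *Socs2*, an inhibitor of the receptor made in answer to STAT5, had 5.51, 7.26, 5.30, 6.14 and 5.73 in the L rats and 5.41, 4.54, 3.98 and 4.61 in the H rats, with H12 within the L range (log2 difference -1.35, standard error 0.35, adjusted p = 0.263). *Cish*, a relative of *Socs2* named after its values were seen, was lower in H13, H15 and H16 (4.22 to 4.41) than in H12 (6.41). Its difference of -0.94 ran from -1.47 to -0.53 when single L or H rats were left out. In the fits that left out 1 array, its adjusted limma p was at least 0.626. *Igfals*, which keeps insulin-like growth factor in the blood, had 10.14, 10.32, 10.10, 10.32 and 10.32 in the L rats and 9.88, 9.82, 9.77 and 10.14 in the H rats (log2 difference -0.34, standard error 0.08, adjusted p = 0.197), and H16 reached the L rats.

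*Bcl6* codes for a repressor that binds sites of STAT5 in mouse liver, and it went the opposite way from these genes. It had 7.05, 7.97, 8.01, 6.84 and 9.13 in the L rats and 9.78, 9.49, 9.86 and 10.06 in the H rats. The 4 H rats lay close together and above all L rats, among which L5 was highest, and the difference was 3.99-fold (log2 difference 1.995, standard error 0.43, adjusted p = 0.177). For the receptor, its kinase and STAT5 the differences were small. *Ghr* differed by -0.07, *Jak2* by -0.03, *Stat5a* by 0.00, *Stat5b* by -0.07 and *Igf1* by -0.13, all with unadjusted p above 0.05. Over the 14 genes of the list, 3 were lower and 1 was higher at an unadjusted p under 0.05, and the median was -0.07, or -0.16 without H12. Of other hormone genes, *Lepr*, the leptin receptor, differed by -0.69 (standard error 0.18) on its brightest probe set. Dimmer ones differed by -0.72, -0.41, -0.55 and -0.05. The other 2 of its 7 probe sets, near the low end of the scale, had the other sign, at 0.04 and 0.07. *Igfbp2*, which binds insulin-like growth factors, differed by 0.63 (standard error 0.22), with most of it in H13 at 6.82. *Pik3r1*, the regulatory subunit of PI3 kinase, differed by -0.57 (standard error 0.19), and 10 of 12 genes from the insulin receptor to FOXO1 were on the lower side (median -0.10).

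**Figure D5:**
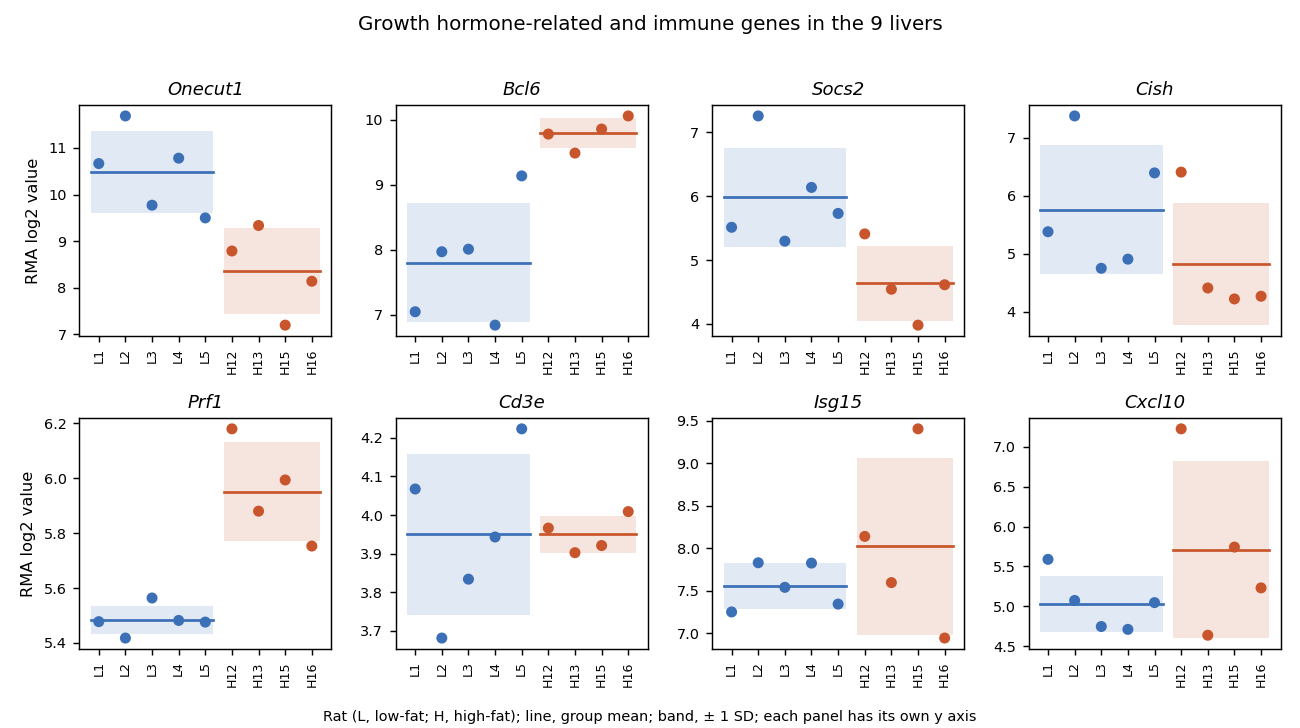
RMA log2 values (y axis) of 4 genes of growth hormone signaling and 4 immune genes in the 9 livers (x axis), with the group mean as a line and 1 SD as a band. Onecut1, Bcl6 and Prf1 show no overlap between the groups, Cish is high in H12 alone among the H rats, and Isg15 is highest in H15 (9.41), with H12 (8.14) also above the L rats.

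Energy sensing through AMP kinase and signaling by cyclic AMP, which glucagon raises in the fasted liver, had members on both sides. *Prkab1*, a beta subunit of AMP kinase, had 9.11, 9.11, 8.86, 9.38 and 8.81 in the L rats and 8.34, 8.76, 8.33 and 8.52 in the H rats, without overlap (log2 difference -0.57, standard error 0.16, adjusted p = 0.343). The catalytic subunit *Prkaa2* had 9.34, 9.64, 9.60, 9.65 and 9.51 in the L rats and 9.01, 9.19, 9.08 and 9.35 in the H rats (log2 difference -0.39, standard error 0.10, adjusted p = 0.273), with H16 level with L1, while the other catalytic subunit, *Prkaa1*, was at 0.13 (standard error 0.07). The dim probe sets of *Prkaa1* differed by -0.29 and 0.055. *Camkk2*, an upstream kinase, differed by -0.28 (standard error 0.09) on a dim probe set and by 0.08 on another dim one. The 8 genes had 4 on each side and a median of -0.09, or -0.05 without H13. *Crem*, a modulator of transcription that answers to cyclic AMP, had 10.21, 10.07, 10.15, 10.36 and 9.92 in the L rats and 9.71, 9.77, 9.48 and 9.54 in the H rats (log2 difference -0.52, standard error 0.12, adjusted p = 0.205), and all 6 of its probe sets were on the lower side. *Pde4d*, a phosphodiesterase that breaks cyclic AMP down, had 6.45, 6.31, 6.67, 6.21 and 6.27 in the L rats and 5.39, 6.01, 5.35 and 5.98 in the H rats (log2 difference -0.70, standard error 0.22, adjusted p = 0.379), and *Prkar2a*, a regulatory subunit of protein kinase A, differed by -0.20 (standard error 0.06). In these 3 of the 16 genes of the list, named for their small p, the H rats all lay below the L rats, against 1.39% of all genes. The list had a median of -0.02, however, with 6 genes on the higher side, up to 0.58. Rank products called 1 gene of the list higher and 2 lower.

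Nuclear receptors and their coactivators lay mostly on the higher side, 12 of 14 (median 0.10), with 4 at an unadjusted p under 0.05. *Nr1i3* (CAR), a sensor of foreign compounds, had 7.93, 8.14, 7.94, 8.04 and 8.11 in the L rats and 7.77, 8.65, 8.94 and 9.22 in the H rats. It was split within the H-group, as H12 lay below all L rats and the other H rats above all of them (log2 difference 0.61, standard error 0.24, adjusted p = 0.481). *Ppargc1b*, a coactivator of lipid genes, differed by 0.52 (standard error 0.19), *Nr5a2* by 0.38 (standard error 0.15) and *Rxrb* by 0.14 (standard error 0.05). A list of 20 genes held cytochromes P450 of families that handle foreign compounds and steroids, and *Por*, which feeds them electrons. Of these 20, 12 were on the higher side. *Cyp3a2* had H rats between 13.52 and 13.59 and L rats between 13.24 and 13.41 (log2 difference 0.22, standard error 0.05, adjusted p = 0.209), and *Por* differed by 0.46 (standard error 0.19).

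Stress and biosynthetic genes followed. Of 12 antioxidant targets of NRF2, 9 were on the higher side (median 0.14), 4 at an unadjusted p under 0.05 and 2 without overlap. *Srxn1*, which restores peroxiredoxins, had 6.39, 6.90, 6.58, 6.45 and 6.79 in the L rats and 6.96, 6.90, 7.22 and 7.47 in the H rats (log2 difference 0.51, standard error 0.15, adjusted p = 0.343), H13 and L2 being level. *Gclc*, the first enzyme of glutathione synthesis, had 9.42, 9.25, 9.56, 9.41 and 9.63 in the L rats and 9.88, 9.68, 9.74 and 9.87 in the H rats (log2 difference 0.33, standard error 0.09, adjusted p = 0.296). *Gclm*, its partner, differed by 0.22 (standard error 0.10), and *Nqo1*, a quinone reductase, by 0.62 (standard error 0.28), mostly through H15 at 7.41. *Psat1* and *Psph*, neighbouring steps of serine synthesis, both showed the H rats above the L rats. *Psat1* had 4.22, 4.28, 4.04, 4.26 and 4.51 in the L rats and 5.49, 4.68, 4.52 and 5.61 in the H rats (log2 difference 0.81, standard error 0.21, adjusted p = 0.263), with H12 and H16 highest, and *Psph* 6.25, 5.99, 6.30, 6.26 and 6.32 in the L rats and 6.60, 6.54, 6.52 and 6.59 in the H rats (0.34, standard error 0.10). *Shmt2*, which uses the serine, differed by 0.18 (standard error 0.06), whereas *Cth*, which makes cysteine, differed by -0.36 (standard error 0.14) and *Hal*, which breaks down histidine, by -0.52 (standard error 0.15).

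*Hspb1*, a small heat shock protein, had H rats between 6.36 in H12 and 6.9995 in H15 against 5.54 to 6.46 in the L rats (log2 difference 0.80, standard error 0.18, adjusted p = 0.197), and 11 of 13 chaperones were on the higher side (median 0.12, but 0.04 without H12 and 0.19 without L2). *Fos*, an immediate early gene, had 5.23, 6.32, 5.51, 6.67 and 6.15 in the L rats and 7.59, 8.79, 7.16 and 7.06 in the H rats (log2 difference 1.68, standard error 0.48, adjusted p = 0.343), without overlap and with H13 highest, though a dim second probe set gave -0.04. *Egr2* differed by 0.42 (standard error 0.16), and the 16 immediate early genes had 9 on the higher side and a median of 0.05.

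*Lox* and *Loxl1* code for enzymes that cross-link collagen and elastin. *Lox* had 8.31, 6.38, 9.34, 6.95 and 6.50 in the L rats and 9.46, 10.41, 9.53 and 10.34 in the H rats, so that L3 came near the H rats while L2, L4 and L5 lay far below (log2 difference 2.44, standard error 0.55, adjusted p = 0.193), and its other probe set gave 2.52. *Loxl1* had 4.87, 4.67, 4.51, 4.72 and 4.75 in the L rats and 5.08, 4.95, 5.66 and 5.62 in the H rats (log2 difference 0.63, standard error 0.17, adjusted p = 0.296). In both genes the groups did not overlap. *Col1a1* and *Col3a1* differed by -0.06 each and *Col1a2* by -0.29 (standard error 0.12), and of the 15 genes of matrix and fibrosis 9 were on the lower side (median -0.06). Markers of stellate cells and fibroblasts had 2 of 8 on the higher side, with *Dcn* (decorin) at -0.61 (standard error 0.25), and their mean level, centred on each gene, ran from -0.05 to 0.19 in the L rats and from -0.11 to 0.05 in the H rats.

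Immune genes split into those shared by all H rats and those of single rats. *Prf1*, the pore protein of cytotoxic cells, had 5.48, 5.42, 5.56, 5.48 and 5.48 in the L rats and 6.18, 5.88, 5.99 and 5.75 in the H rats (log2 difference 0.47, standard error 0.10, adjusted p = 0.166). *Gzma*, a protease of the same granules, had 5.59, 5.94, 5.95, 5.93 and 5.67 in the L rats and 6.50, 6.10, 6.56 and 6.07 in the H rats (log2 difference 0.49, standard error 0.15, adjusted p = 0.354), and *Ccl5*, a chemokine of cytotoxic cells and others, had 7.52, 7.54, 7.62, 7.60 and 7.38 in the L rats and 7.93, 8.04, 8.13 and 7.81 in the H rats (log2 difference 0.45, standard error 0.13, adjusted p = 0.338). In these 3 genes no H rat overlapped an L rat. The T cell markers *Cd3d*, *Cd3e*, *Cd3g* and *Cd2*, all with means under 5, differed by -0.01, 0.00, -0.04 and -0.05, and *Nkg7* by 0.11. Over the 9 measured T and NK cell markers 5 were on the higher side and the median was 0.03 (0.01 without H16 and 0.11 without H13), and their mean level centred on each gene ran from -0.09 to 0.01 in the L rats and from 0.00 to 0.16 in the H rats. The part of such cells in these differences was not tested. *Cxcl13*, a chemokine for B cells, had 4.03, 3.83, 3.75, 3.34 and 4.08 in the L rats and 4.44, 4.25, 6.06 and 5.16 in the H rats (log2 difference 1.17, standard error 0.33, adjusted p = 0.331), without overlap and with H15 highest, while 4 of 5 measured B cell and plasma cell markers were on the lower side. *Pf4* differed by 0.56 (standard error 0.20) and *Il1a* by -0.43 (standard error 0.17).

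Of 15 genes of the interferon response 14 were on the higher side (median 0.42), but 3 had an unadjusted p under 0.05 and none was without overlap. Rat H15 carried much of this. *Isg15* had 7.25, 7.83, 7.54, 7.82 and 7.34 in the L rats and 8.14, 7.59, 9.41 and 6.94 in the H rats, and *Cxcl10* was highest in H12 (5.59, 5.07, 4.75, 4.71 and 5.05 in the L rats and 7.23, 4.64, 5.74 and 5.23 in the H rats), both named after their values were seen. The mean level of the list, centred on each gene, ran from -0.25 to 0.03 in the L rats and from -0.38 to 1.05 in the H rats. Without H15 the median fell to 0.05, and without H16, the lowest rat, it was 0.66. *Ifit2* was more even, with 7.80, 7.66, 7.44, 7.69 and 8.10 in the L rats and 8.25, 7.94, 8.50 and 8.35 in the H rats (log2 difference 0.52, standard error 0.14, adjusted p = 0.317), and *Gbp2* was high in H12 and H15 only (6.46, 6.06, 5.67, 6.14 and 6.13 in the L rats and 7.43, 6.15, 7.20 and 6.14 in the H rats). Of 9 Kupffer cell and macrophage markers, 8 were on the higher side (median 0.11), none of them at an unadjusted p under 0.05, and their centred mean ran from -0.17 to 0.00 in the L rats and from -0.14 to 0.33 in the H rats. *S100a9* of neutrophils differed by 0.32 (standard error 0.13) and *Epcam* of bile ducts by 0.48 (standard error 0.20). Of the neutrophil markers 4 of 4 were on the higher side (median 0.12) and of the bile duct markers 3 of 5 (median 0.03), *S100a9* and *Epcam* being the 1 gene of each list with an unadjusted p under 0.05. Acute phase proteins had 11 of 16 on the lower side, with *Crp* at -0.38 (standard error 0.12) and *Apcs* at -0.17 (standard error 0.05).

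Some genes outside these lists also differed without overlap, and the examples given here are not the largest of them. *Atxn1l*, a partner of a transcriptional repressor, had 8.41, 8.55, 8.31, 8.62 and 7.97 in the L rats and 7.61, 7.95, 7.54 and 7.81 in the H rats (log2 difference -0.64, standard error 0.12, adjusted p = 0.124), and without L5 it passed limma (adjusted p = 0.0246). *Mbp*, known as a protein of myelin, had 6.45, 5.95, 5.64, 5.62 and 5.99 in the L rats and 4.82, 5.37, 5.12 and 5.22 in the H rats (log2 difference -0.80, standard error 0.17, adjusted p = 0.166). On the higher side were *Ccdc68*, with 5.02, 4.85, 4.11, 4.93 and 5.36 in the L rats and 6.33, 5.84, 5.44 and 5.56 in the H rats (log2 difference 0.94, standard error 0.22, adjusted p = 0.198), and *Tbc1d9*, of a family that acts on Rab proteins, with 5.63, 5.15, 4.97, 5.001 and 5.51 in the L rats and 5.99, 5.71, 6.11 and 5.94 in the H rats (log2 difference 0.69, standard error 0.14, adjusted p = 0.163). *Serpina7*, which carries thyroid hormone in plasma, belongs to the list of secreted liver hormones and carriers, and its groups overlapped. It was above all L rats in H12, H13 and H16 (10.001 to 10.58) but below them in H15 at 8.42.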

How the data were processed

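RNA of 9 livers was measured on 1 Affymetrix array each. The authors deposited log2 values, normalized with RMA over the liver arrays of the series as far as the study's methods tell, and these were used as they stood. How arrays were spread over batches is not given in the sources used here, and each rat is 1 replicate. Of 31099 probe sets, 57 controls were left out. The platform annotation gave 1 gene for 20826 of the others, several for 436 and none for 9780, and only probe sets with 1 gene were named. A gene was represented by its probe set with the highest mean over the 9 arrays.

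Limma 3.58.1 in R 4.3.3 was fitted to the 13 liver arrays with a mean per diet, with Benjamini-Hochberg adjustment over 31042 probe sets. The 4 arrays of the moderate-fat group enter only the estimate of the spread. Rank products over the 20 H to L ratios used 100 permutations. The other steps used Python 3.11.15, numpy 2.4.6, matplotlib 3.10.9 and pandas 2.3.3. Limma and rank products were tested on simulated data, but the other steps were not. Arrays give no read depth, so the number of rats limits the precision.

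Of 697 genes asked for in 58 lists, 627 were found. The comparison and the lists were chosen with earlier results of these data known. Named genes were those past limma, up to 15 in each direction with the largest difference without overlap (mean at least 5, unadjusted p under 0.01), up to 4 per list with an unadjusted p under 0.05 or otherwise the gene of smallest p, genes named by the study, and all clock and zinc genes. This rule chose 174 genes, of which 123 are described. Acot1, Cish, Cxcl10, Gpt, Isg15 and Thrsp, and the genes given as level or as tissue markers (Abca1, Alb, Cd2, Cd3d, Cd3e, Cd3g, Col1a1, Col3a1, Cyp27a1, Cyp8b1, Fasn, Ghr, Igf1, Jak2, Nkg7, Stat5a, Stat5b and Ttr), are outside it and were chosen after their values were seen. Alternatives were array omission, normalization, filters, weights, the variance prior, thresholds and averaging over a gene's probe sets. The 18 adipose columns were not used.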

Additional observations from a re-analysis of the deposited data

Results flagged for a closer look

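In 256 groups of 4 or 5 rats, for 128 genes, the rat at either end was compared with the rest of its group, and 13 groups (5.08%) held a rat whose gap to its nearest neighbour passed the 95% limit of Dixon's test. Chance gives about 1 in 20. Of these, 5 belonged to rat L2 and 3 to rat H12.

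Rat L2 was the low one in *Cideb* (8.63, against 8.72 to 8.76 in the other L rats), *Hlf* (7.29, against 8.12 to 8.35), *Usp2* (4.82, against 6.33 to 6.86) and *Psph* (5.99, against 6.26 to 6.32), and the high one in *Epcam* (6.09, against 5.34 to 5.41). In *Epcam* rat H15 was also high, at 6.56 against 5.75 to 5.89 in the other H rats.

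Rat H12 was the high one in *Cyp7b1* (4.95, against 2.96 to 3.29), *Cish* (6.41, against 4.22 to 4.41) and *Rxrb* (5.18, against 5.11 in each of the other H rats, a gap of little size). On the brightest probe set of *Pdk4* rat H16 was low, at 8.23 against 9.60 to 9.68. In *Nr5a2* rat H13 was low, at 8.39 against 8.65 to 8.69.

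In *Slc39a4*, L3 was low among the L rats (7.27, against 7.51 to 7.58) and H13 low among the H rats (6.38, against 6.74 to 6.82). The fall of this gene passed limma without either rat.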

How the results depend on the processing

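No paired analysis was possible because the L and H rats share no replicate numbers. Limma called 11 probe sets. The count was 7 after the 9 arrays were quantile normalized again, 6 with the 9 arrays alone, 5 at an adjusted p under 0.01, and 750 at an unadjusted p under 0.01. Single omissions gave 6 to 16 calls, with 7 without L1, 6 without L2, 6 without L4, 7 without the moderate-fat rat M8 and 16 without L5. Rank products called 436, or 248 over probe sets above the median mean, 188 at a false discovery rate under 0.01, and 301 to 439 over the omissions, where its split turned, with 113 higher and 283 lower without H12, 97 and 213 without H16, 191 and 111 without L2 and 252 and 187 without L5. All 11 limma calls were among its calls.

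Of 2677 alternatives for 128 genes, 2624 kept the direction and the side of the threshold. Only 8 of these genes were called with all arrays, and for the others keeping the side meant staying uncalled. Leaving out a moderate-fat array can change only the p of a difference, so the 2624 do not measure how stable the calls were. Of the 8 called genes, 6 lost their call in 41 alternatives, and calls of 5 other genes were gained in 5. The latter were *Sqle*, *Abcg8*, *Apoa4* and *Atxn1l* as given above and *Slc25a30* without the moderate-fat rat M10 (adjusted p = 0.0408). The direction turned in 5 genes near 0. Over the omissions, *Mtf1* ran from -0.046 to 0.0015, *Cry1* from -0.14 to 0.17, *Per1* from -0.041 to 0.27 and *Hlf* from -0.026 to 0.24, and *Prkaa1* was at -0.032 as the mean of its probe sets. Without both L1 and L2, added after the data were seen, limma called 0, all 8 named calls were lost, *Npas2* turned to 0.025 and *Hlf* to -0.024. The causes were not tested.

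With 5 and 4 rats, the differences of genes that spread widely within a group, such as *Cyp7a1* and *Scd*, did not pass the adjustment over all probe sets. Most genes described did not pass that adjustment.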
